A study of Mus musculus with 18 samples.

Results

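The MS4A genes Ms4a4a, Ms4a4b, Ms4a4c, Ms4a6b, Ms4a6c, Ms4a6d and Ms4a7 were followed across 4 lymphocyte populations and 2 macrophage populations of mouse liver bearing colon cancer metastases. The members were taken by gene symbol, and these 7 genes stand among 54309 gene rows in the lymphocyte table and 13759 in the macrophage table. All libraries came from liver of female C57BL/6J mice, 8 to 10 weeks old, 20 days after MC38 cells had been injected into the spleen. MC38 is a mouse colon adenocarcinoma line, and every group carries this tumour, since the metastasis-free tissue also comes from tumour-bearing livers. The lymphocyte groups were lineage-negative NKp46+ cells. They were NK cells of metastasis-free liver (MFL NK, CD49a- CD49b+), ILC1 of metastasis-free liver (MFL ILC1, CD49a+ CD49b-), and 2 populations of liver metastases, LM CD49a- NK (CD49a- CD49b+) and LM CD49a+ NK (CD49a+ CD49b+). By title the LM CD49a+ NK cells are ILC1, whereas by their cell type label they are CD49a+ NK cells, the name used here. The macrophage groups were lineage-negative CD11b+ metastasis-associated macrophages (MAM) sorted as F4/80hi or F4/80int, the latter labelled F4/80 low. Each group had 3 libraries, and the lymphocyte libraries were made from pools of 6 to 8 tissue samples. Metastases were digested with enzyme while metastasis-free liver was pressed through a filter, so site and dissociation cannot be told apart.

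MS4A proteins span the membrane 4 times and sit in the plasma membrane or in endosomes, often beside immune receptors whose signalling they tune. The family includes CD20 (Ms4a1), the B cell marker targeted by rituximab, and the beta chain of the high-affinity IgE receptor of mast cells (Ms4a2). Ms4a4b is known from mouse NK and T lymphocytes, where its protein associates with GITR. Ms4a4a and Ms4a7 are known from macrophages, and the Ms4a6 genes from the myeloid lineage more widely.

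The annotation places 21 Ms4a genes in 1 cluster on chromosome 19 (GRCm39), from position 10939657 to 11618215, and the members lie between 11298403 and 11582213. In chromosomal order they are Ms4a7 (11298403 to 11313510, minus strand), Ms4a4a (11352823 to 11370154, plus), Ms4a4c (11382131 to 11404610, plus), Ms4a4b (11412557 to 11444419, plus), Ms4a6c (11446718 to 11462204, plus), Ms4a6b (11493876 to 11508620, plus) and Ms4a6d (11563968 to 11582213, minus). Ms4a14 is the neighbour of Ms4a7 (11278613 to 11291818, minus).

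Several members are close copies, which bears on how reads are assigned to them. The coding sequences of Ms4a4b and Ms4a4c were 91.8% identical, those of Ms4a6b and Ms4a6d 80.5%, and those of Ms4a6b and Ms4a6c 75.7%. The longest stretch shared letter for letter is printed here for the first 2 of these pairs, because bases inside it cannot tell the copies apart. The untrimmed lymphocyte reads are longer than the second of these stretches, so such a read cannot fall wholly inside that one. The Ms4a4b and Ms4a4c stretch covers 127 coding bases, from exon 5 (11436525 to 11436642 in Ms4a4b, 11396365 to 11396482 in Ms4a4c) into exon 6. The Ms4a6b and Ms4a6d stretch covers 81 coding bases of exons 2 and 3. Sequences are the coding strand of GRCm39, 5′ to 3′, and no letter is capitalised because the whole run is shared.
Ms4a4b and Ms4a4c: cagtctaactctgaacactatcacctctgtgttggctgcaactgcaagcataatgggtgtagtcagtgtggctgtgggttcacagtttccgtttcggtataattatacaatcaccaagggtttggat
Ms4a6b and Ms4a6d: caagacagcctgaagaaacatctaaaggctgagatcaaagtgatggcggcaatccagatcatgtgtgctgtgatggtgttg

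Of the 31-base words in each member's canonical transcript, the share also found in another Ms4a gene was 16.0% for Ms4a4c, 14.9% for Ms4a6c, 12.99% for Ms4a6b, 12.8% for Ms4a4b and 6.34% for Ms4a6d. Counting any other gene, the share was 23.7% for Ms4a6c, 17.5% for Ms4a4c, 13.35% for Ms4a4b, 13.2% for Ms4a6b and 6.7% for Ms4a6d. Ms4a4a, Ms4a7 and Ms4a14 shared none. The values of Ms4a4a, Ms4a7 and Ms4a14 therefore rest on words of their own, while those of the 5 close copies carry an uncertainty of assignment, and subfamily sums are given beside them. The sums do not cover words shared with genes outside the subfamily, and Ms4a4d had no row in the macrophage table.

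The lymphocyte libraries held 8795721 to 14386834 counts and the macrophage libraries 21278959 to 32267015. A level is given as CPM, the count relative to the TMM-scaled library total of its own table, and the 2 tables were prepared with different kits and were never tested against each other. In the lymphocyte libraries the 12 NK cell and ILC1 markers summed to 5880 to 11890 CPM, and 8 B cell markers to at most 7.44 CPM. The 14 macrophage markers were all detected in every macrophage library, at 13100 to 40220 CPM, and summed to 0 to 154 CPM in the lymphocyte libraries. The highest lymphocyte value, with 13 of the 14 markers over 3 counts, was in MFL ILC1 replicate 2.

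Ms4a4b carried most of the MS4A signal of the lymphocytes. In MFL NK its level was 296, 378 and 409 CPM in the 3 libraries. In LM CD49a- NK it was 282, 324 and 247 CPM, and in LM CD49a+ NK 368, 377 and 228 CPM. In MFL ILC1 it was 235, 183 and 216 CPM. The group means ran from 361 ± 58.2 CPM (SD, n = 3) in MFL NK through 324 ± 83.6 in LM CD49a+ NK and 284 ± 38.9 in LM CD49a- NK to 211 ± 26.0 in MFL ILC1. The 3 NK cell populations overlapped in their libraries. MFL ILC1 lay below MFL NK and below LM CD49a- NK in every library, and overlapped with LM CD49a+ NK, whose lowest library was at 228 CPM.

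**Figure D1:**
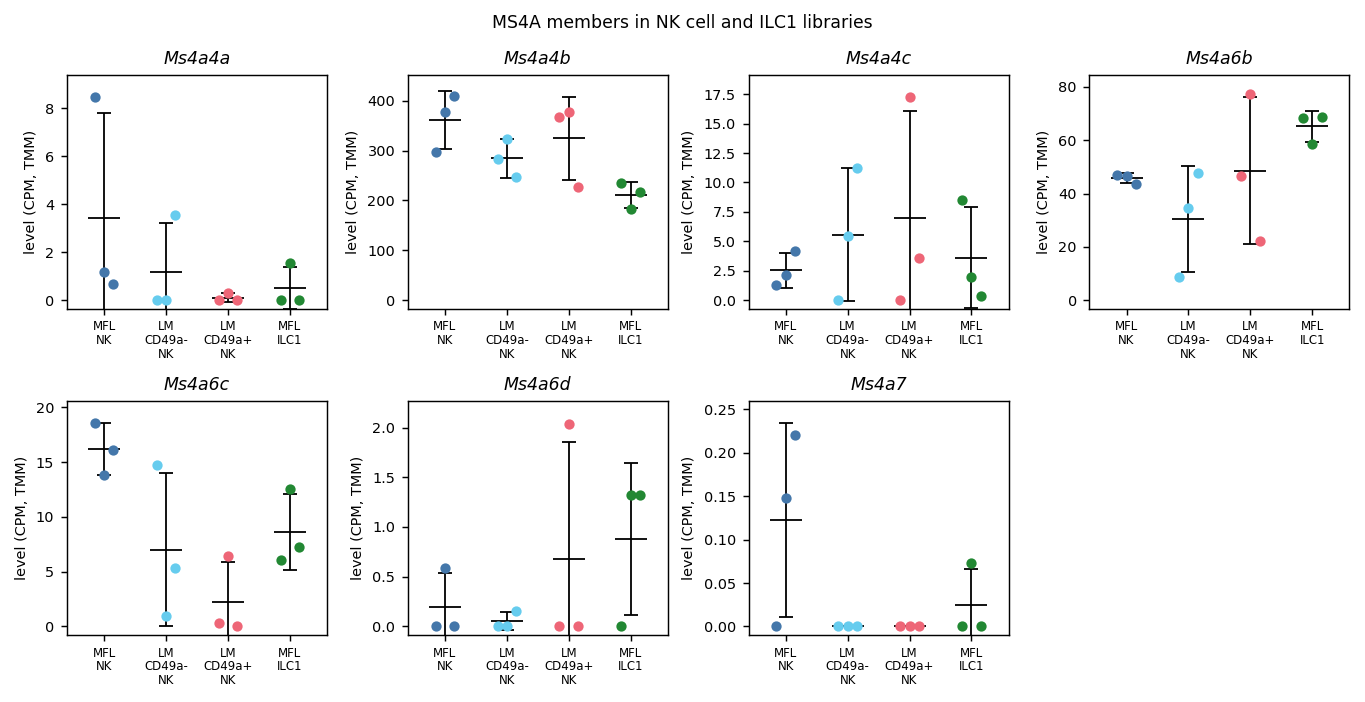
Level of each member (CPM after TMM scaling, linear axes that differ between panels) in the 12 lymphocyte libraries. Points are libraries, the long dash is the group mean and the bar its SD, cut off near 0. Ms4a4b reaches 409 CPM and separates MFL ILC1 from MFL NK, while Ms4a7 stays at or below 0.22 CPM.

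Ms4a6b was the other member seen in every lymphocyte library. Its level was 47.1, 46.7 and 43.8 CPM in MFL NK, 8.69, 34.6 and 47.7 CPM in LM CD49a- NK, 46.5, 77.2 and 22.1 CPM in LM CD49a+ NK, and 68.4, 58.6 and 68.7 CPM in MFL ILC1. The 3 MFL ILC1 libraries were above the 3 MFL NK libraries. The libraries from metastases ran from 8.69 to 77.2 CPM, from below to above both ranges. Ms4a6b was thus placed the other way round from Ms4a4b in the 2 metastasis-free populations. Within a library, the Ms4a6b count was 10.7 to 15.9% of the Ms4a4b count in MFL NK and 29.2 to 31.9% in MFL ILC1. It was 3.08 to 19.4% in LM CD49a- NK and 9.71 to 20.5% in LM CD49a+ NK, so the 3 ILC1 libraries lay above all 9 NK cell libraries. This ratio was chosen after the values were seen and, with 3 libraries against 3, an exact permutation test cannot go below p = 0.1.

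Ms4a6c was low and uneven. It was 18.6, 13.9 and 16.2 CPM in MFL NK, 14.7, 0.997 and 5.36 CPM in LM CD49a- NK, 0.290, 6.41 and 0 CPM in LM CD49a+ NK, and 6.03, 12.6 and 7.30 CPM in MFL ILC1. All MFL NK libraries were above all LM CD49a+ NK and all MFL ILC1 libraries. Their log2 differences were -2.85 (SE 1.52) for LM CD49a+ NK and -0.91 (SE 1.43) for MFL ILC1, and neither passed (adjusted p = 0.604 and 1, edgeR's quasi-likelihood test).

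Ms4a4a, Ms4a4c, Ms4a6d and Ms4a7 were unevenly spread over the lymphocyte libraries. Ms4a4a had 199 counts over the 12 libraries, of which 104 fell in MFL NK replicate 1, and 7 libraries had none or 4 at most. Ms4a4c had 682 counts, was over 3 counts in 10 of the 12 libraries, and had 221 in LM CD49a+ NK replicate 2 (17.3 CPM) and 143 in LM CD49a- NK replicate 3 (11.3 CPM). Ms4a6d had 68 counts in all, 26 of them in LM CD49a+ NK replicate 2, 18 in MFL ILC1 replicate 2 and 14 in MFL ILC1 replicate 3. LM CD49a+ NK replicate 2 was also the highest library of Ms4a6b, and its macrophage markers summed to 51.6 CPM, against 8.13 and 6.88 CPM in the other libraries of its group. The part of macrophage RNA in its MS4A values was not tested. Ms4a7 had 6 counts over all 12 libraries and no library above 3, the floor used here, which corresponds to 0.219 to 0.334 CPM. At this depth Ms4a7 was not detectable in any of the 4 lymphocyte populations, and it was not tested there.

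For each gene, the level per kilobase of exon was used to set members beside each other. Ms4a4b made up 68.0 ± 7.40% of the summed CPM per kb of the 7 members in MFL NK, 72.3 ± 15.2% in LM CD49a- NK, 71.1 ± 12% in LM CD49a+ NK and 53.4 ± 2.58% in MFL ILC1 (SD, n = 3). Ms4a6b followed with 18.6, 15.3, 20.8 and 35.4% in the same order of groups. With the longest coding transcript as the length, Ms4a4b and Ms4a6b kept the first 2 places in all 4 populations.

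**Figure D2:**
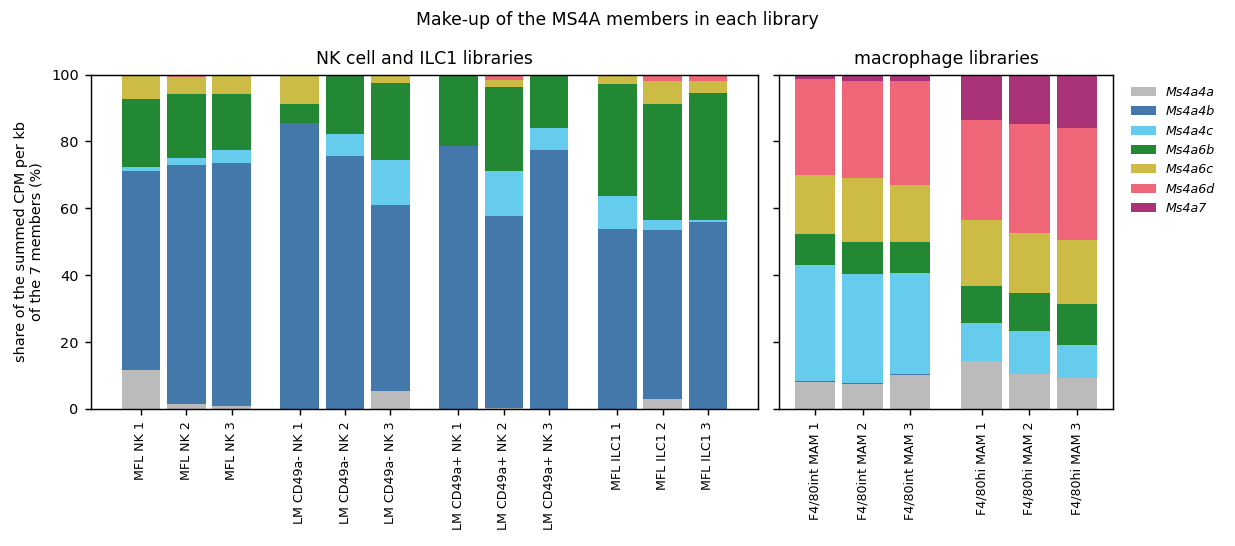
Share of each member in the summed CPM per kb of exon of the 7 members (percent, stacked to 100), 1 bar per library, lymphocytes on the left and macrophages on the right. Ms4a4b fills 50.7 to 85.6% of every lymphocyte bar, while Ms4a4c, Ms4a6c and Ms4a6d fill most of each F4/80int bar and Ms4a7 takes 13.7 to 16.0% of the F4/80hi bars.

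None of the 6 tested members passed the threshold, an adjusted p under 0.1 in edgeR's quasi-likelihood test, in any of the lymphocyte comparisons. The shares of all 13594 genes that passed show how few calls these comparisons gave. They were 0.14% for LM CD49a+ NK against LM CD49a- NK, 0.647% for LM CD49a+ NK against MFL NK and 0.0736% for LM CD49a- NK against MFL NK. They were 3.06% for MFL ILC1 against MFL NK, 3.58% for LM CD49a+ NK against MFL ILC1, and 1.03% for the interaction, which asks whether the CD49a+ against CD49a- difference is itself different between metastasis and metastasis-free liver. At an unadjusted p under 0.05 the members past it were 0 in the first 3 comparisons and 1, Ms4a4b, in each of the others, where 8.37, 14.1 and 8.7% of all genes were past it, so 1 of 6 members is near the background. DESeq2 called 0 members except for Ms4a4b in MFL ILC1 against MFL NK, where it called 4.96% of all genes. Limma-voom called Ms4a4b in that comparison, in LM CD49a+ NK against MFL ILC1 and in the interaction, where it called 19.5, 6.88 and 1.32% of all genes.

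The difference of Ms4a4b between MFL ILC1 and MFL NK was the nearest to the threshold. Its log2 fold change was -0.77 (SE 0.236), which is a level 1.71-fold lower in ILC1. In edgeR's fit across all genes its adjusted p was 0.128. The adjusted p was 0.0823 by DESeq2, 5.29e-06 by limma-voom with sample weights and 0.0197 when the 2 groups were fitted alone, and ranged from 5.29e-06 to 0.529 over 19 alternative settings. Leaving out LM CD49a- NK replicate 2 or LM CD49a+ NK replicate 3, libraries outside this comparison, also brought it under 0.1 (0.0882 and 0.0662). In LM CD49a+ NK against MFL ILC1 the log2 fold change of Ms4a4b was 0.62 (SE 0.235, adjusted p = 0.232), and limma-voom called it (0.0429). The interaction of Ms4a4b was 0.96 (SE 0.332, adjusted p = 0.383). Between the 2 NK cell populations of metastases it was 0.19 (SE 0.234, adjusted p = 0.825), and between LM CD49a- NK and MFL NK -0.34 (SE 0.235, adjusted p = 0.882). Markers of other cells differed between MFL ILC1 and MFL NK too. T cell markers summed to 504 to 936 and 71.7 to 145 CPM, led by Cd3g (472 and 6.21 CPM on average) with Cd3e at most 0.612 CPM on average. Neutrophil markers summed to 107 to 156 and 0 to 1.4 CPM, almost all of it Mmp9, and tumour epithelium markers to 59.3 to 95.2 and 0.295 to 2.53 CPM, from Cdh1 and Epcam. Mast cell markers summed to 0 to 0.663 and 95 to 189 CPM, almost all of it Cma1. Classical monocyte markers summed to 147 to 322 and 1159 to 1432 CPM. Dendritic cell markers summed to 658 to 808 and 456 to 507.5 CPM, almost all of it Itgax. The part of such cells in the differences of Ms4a4b and Ms4a6b was not tested. In bulk samples, fewer cells of a type that expresses a gene and less RNA per cell cannot be told apart.

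For Ms4a6b the log2 fold changes were 0.51 (SE 0.519) in MFL ILC1 against MFL NK, 0.68 (SE 0.521) in LM CD49a+ NK against LM CD49a- NK, and -0.60 (SE 0.52) in LM CD49a- NK against MFL NK, with adjusted p between 0.667 and 1. The sum of the Ms4a4 genes followed Ms4a4b, at -0.77 (SE 0.235, adjusted p = 0.129) in MFL ILC1 against MFL NK. The sum of the Ms4a6 genes was 0.26 (SE 0.426, adjusted p = 1) there. These sums do not depend on how reads were divided between copies of a subfamily. They gave no call in the edgeR fit of all groups, and the Ms4a4 sum, like Ms4a4b, was called under 5 of 19 alternatives in MFL ILC1 against MFL NK (edgeR, DESeq2 or limma-voom adjusted p from 4.71e-06 to 0.535). Limma-voom also called it in LM CD49a+ NK against MFL ILC1 (0.0359) and in the interaction (0.0587).

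All 7 members had counts in every macrophage library. Ms4a7 was 31.3, 42.6 and 47.7 CPM in F4/80int MAM and 364, 327 and 383 CPM in F4/80hi MAM. Every F4/80hi library was far above every F4/80int library. The log2 fold change was 3.15 (SE 0.161), which is 8.85-fold, with adjusted p = 4.18e-06.

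Ms4a4c went the other way. It was 334, 319 and 317 CPM in F4/80int MAM and 124, 116 and 100.05 CPM in F4/80hi MAM, and the groups did not overlap. It was 2.85-fold lower in F4/80hi MAM (log2 fold change -1.51, SE 0.099, adjusted p = 1.15e-05). The Ms4a7 count was 9.36 to 15.0% of the Ms4a4c count in the F4/80int libraries and 282 to 383% in the F4/80hi libraries, so the ratio of these near neighbours turned over between the 2 macrophage populations.

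**Figure D3:**
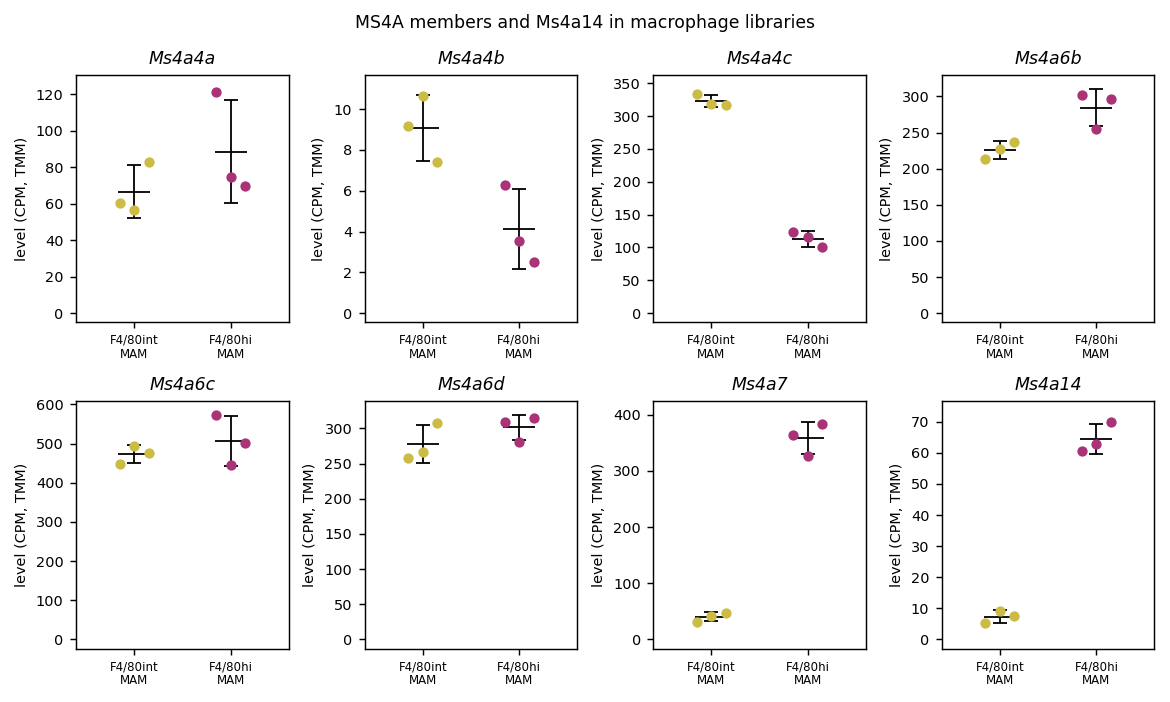
Level of the 7 members and of Ms4a14 (CPM after TMM scaling, linear axes from 0 that differ between panels) in the 3 F4/80int and 3 F4/80hi MAM libraries. Points are libraries, the long dash is the group mean and the bar its SD. Ms4a7 and Ms4a14 are higher and Ms4a4c and Ms4a4b lower in all F4/80hi libraries, while Ms4a6c and Ms4a6d overlap.

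Ms4a4b, the leading member of the lymphocytes, was at 9.19, 10.7 and 7.39 CPM in F4/80int MAM and 6.30, 3.54 and 2.50 CPM in F4/80hi MAM. It was 2.23-fold lower in F4/80hi MAM (log2 fold change -1.16, SE 0.322, adjusted p = 0.0181). Its count was 2.33 to 5.08% of the Ms4a4c count in all 6 libraries, with no gap between the groups. The NK cell and ILC1 markers differed in the same direction and by a larger factor, from 76.8 to 145 CPM in F4/80int MAM to 7.12 to 14.2 CPM in F4/80hi MAM. Their sum was led by Klrk1 (78.0 and 4.99 CPM on average). Whether its counts are reads of Ms4a4c, RNA of lymphocytes or macrophage transcripts was not tested.

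Ms4a6b was 213, 228 and 237 CPM in F4/80int MAM and 302, 255.2 and 296 CPM in F4/80hi MAM. The difference was small but larger than the spread, at 1.26-fold (log2 fold change 0.33, SE 0.095, adjusted p = 0.0198). Ms4a6c, at 445 to 573 CPM, and Ms4a6d, at 258 to 315 CPM, overlapped between the populations. Their log2 fold changes were 0.10 (SE 0.109, adjusted p = 0.482) and 0.12 (SE 0.098, adjusted p = 0.346). Ms4a4a was 60.1, 56.7 and 83.0 CPM in F4/80int MAM and 121, 74.4 and 69.9 CPM in F4/80hi MAM, and its log2 fold change of 0.41 (SE 0.226) did not pass (adjusted p = 0.173). It passed without F4/80hi MAM replicate 3 (0.0951) or without F4/80int MAM replicate 3 (0.0729), and with limma-voom (0.0429).

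In all, 4 of the 7 members passed between the macrophage populations, 2 in each direction. Of all 13759 genes 54.9% passed, so the number of members called is near the background. The median log2 fold change of the members was 0.12, beside 0.01 over all genes. The sum of the Ms4a4 genes fell in F4/80hi MAM (log2 fold change -0.95, SE 0.136, adjusted p = 0.000696), led by Ms4a4c. The sum of the Ms4a6 genes was 0.16 (SE 0.102, adjusted p = 0.224).

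**Figure D4:**
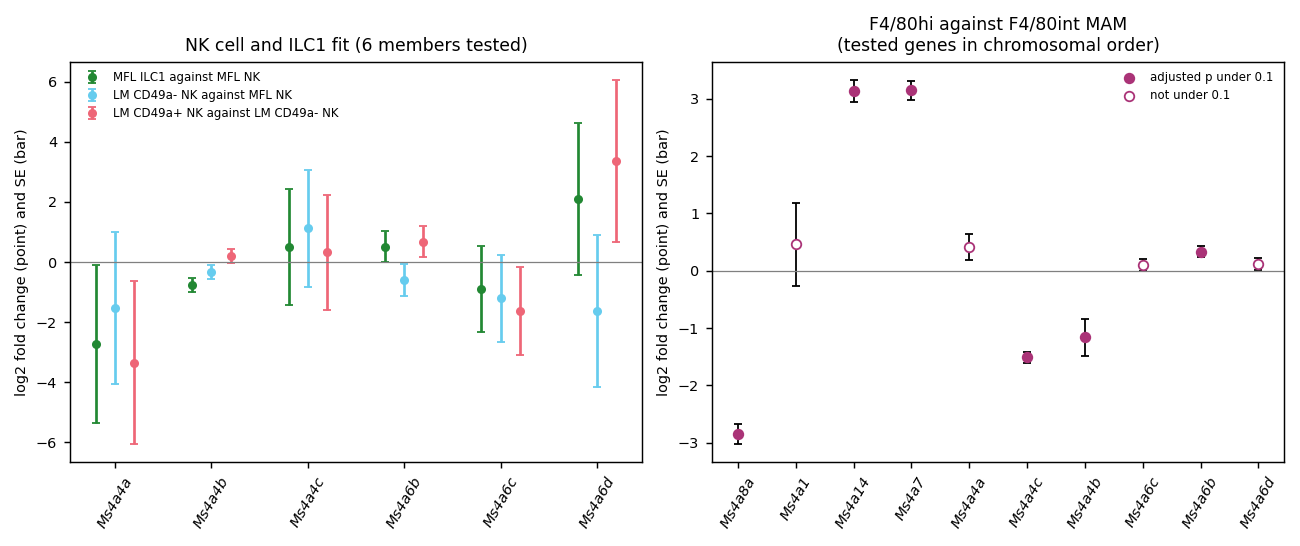
Log2 fold change (points) and SE (bars) of the members. The left panel shows 3 lymphocyte comparisons for the 6 tested members, where only Ms4a4b and Ms4a6b have an SE below 0.6. The right panel shows F4/80hi against F4/80int MAM for the 10 tested Ms4a genes in chromosomal order, where the neighbours Ms4a14 and Ms4a7 are both near 3.14 and Ms4a4c and Ms4a4b are below -1.

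Per kilobase of exon, Ms4a4c led in F4/80int MAM with 32.5 ± 2.35% of the summed CPM per kb, ahead of Ms4a6d with 29.7 ± 1.35% (SD, n = 3). In F4/80hi MAM Ms4a6d led with 32% ± 1.97, followed by Ms4a6c with 19.0 ± 0.707% and Ms4a7 with 14.8 ± 1.13%. This order depended on the length used. With the longest coding transcript, Ms4a6d (27.5%) and Ms4a4c (26.4%) changed places in F4/80int MAM, and Ms4a7 (26.6%) came before Ms4a6d (24.9%) in F4/80hi MAM. Ms4a4b was last in both populations by either length.

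Of the 14 other Ms4a genes, 3 had a row in the macrophage table. Ms4a14, beside Ms4a7 on the same strand, was 5.22, 9.22 and 7.52 CPM in F4/80int MAM and 60.6, 62.8 and 69.9 CPM in F4/80hi MAM (log2 fold change 3.14, SE 0.189, adjusted p = 7.96e-06). Its count was 15.8 to 21.7% of the Ms4a7 count in F4/80int MAM and 16.7 to 19.2% in F4/80hi MAM, so both genes differed by nearly the same factor. Ms4a8a was 15.1, 17.5 and 21.6 CPM in F4/80int MAM and 2.52, 2.66 and 2.34 CPM in F4/80hi MAM (log2 fold change -2.85, SE 0.176, adjusted p = 9.27e-06). Ms4a1 was at 0.389 to 2.75 CPM and did not pass (adjusted p = 0.628).

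Among the lymphocytes, 4 of these 14 genes exceeded 3 counts in any library. Ms4a8a had 86 of its 120 counts in LM CD49a- NK replicate 1, and the 47 counts of Ms4a2 were all in LM CD49a+ NK replicate 3. Ms4a15 had 7, 29 and 24 counts in MFL NK and none in LM CD49a+ NK, and it passed in no comparison. The fourth was Ms4a4d, with 6 counts in MFL ILC1 replicate 1.

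RefSeq promoter windows (GRCm38.p6, 300 bases around the start) were at hand for 6 members. Each was searched on both strands for GAGGAAG (PU.1), GGTGTGA (T-box), TGTGGTT (RUNX), TGANTCA (AP-1) and GAAANNGAA (interferon response). No member window held the PU.1 or RUNX word, which 15.4 and 6.09% of all 27025 genes hold. The interferon word was in Ms4a6b, Ms4a6c and Ms4a7 and in 9.76% of all genes, the AP-1 word in Ms4a4b and Ms4a7 and in 8.97%, and the T-box word in Ms4a7 and in 4.6%. One of the 2 windows of Ms4a7 and that of Ms4a14 are shown because these neighbours differed alike between the macrophages, with the words found in capitals.
Ms4a7 (chr19:11334646-11334945, minus strand): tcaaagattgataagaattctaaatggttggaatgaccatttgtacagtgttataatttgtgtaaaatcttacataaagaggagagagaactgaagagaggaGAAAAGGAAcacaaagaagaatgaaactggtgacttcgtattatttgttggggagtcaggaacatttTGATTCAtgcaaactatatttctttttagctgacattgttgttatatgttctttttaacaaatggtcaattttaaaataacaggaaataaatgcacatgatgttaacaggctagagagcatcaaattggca
Ms4a14 (chr19:11314405-11314704, minus strand): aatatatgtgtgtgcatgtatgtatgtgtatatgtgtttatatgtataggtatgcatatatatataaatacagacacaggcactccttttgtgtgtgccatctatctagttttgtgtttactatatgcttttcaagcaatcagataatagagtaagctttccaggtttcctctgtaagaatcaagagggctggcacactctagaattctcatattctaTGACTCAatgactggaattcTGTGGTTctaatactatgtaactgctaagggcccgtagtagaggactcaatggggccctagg

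Both printed windows held an AP-1 word, TGATTCA in that of Ms4a7 and TGACTCA in that of Ms4a14. The other window of Ms4a7 (chr19:11336097-11336396, minus strand) lies upstream of the printed one. It held the T-box word and an interferon word but no AP-1 word. The AP-1 word was also in the windows of Ms4a4b and Ms4a8a, which were lower in F4/80hi MAM, and of Ms4a12. A match of letters is a description of the window and not a binding site.

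Genes whose products act beside MS4A proteins were looked at from a fixed list of 6. In the macrophages all 5 with a row passed, in a comparison where 54.9% of all 13759 genes passed. Trem2, a lipid receptor of macrophages, was 2.62-fold higher in F4/80hi MAM (adjusted p = 0.000194), in the direction of Ms4a7. Clec7a, which encodes dectin-1, the known partner of MS4A4A, was 4.56-fold lower (adjusted p = 0.000472), at 428 to 771 CPM in F4/80int MAM and 83.3 to 163 CPM in F4/80hi MAM, while Ms4a4a did not pass. The signalling adaptors Tyrobp (log2 fold change -0.36, adjusted p = 0.015) and Fcer1g (0.34, adjusted p = 0.0324) differed little. Tnfrsf18, which encodes GITR, was 11.2 to 16.7 CPM in F4/80int MAM and 0.487 to 0.856 CPM in F4/80hi MAM (adjusted p = 7.19e-06), and it is expressed by lymphocytes as well.

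In the lymphocytes Tnfrsf18 was 41.5 ± 11.2 CPM (SD, n = 3) in MFL NK, 49.1 ± 17.7 in LM CD49a- NK, 83.0 ± 47.0 in LM CD49a+ NK and 87.3 ± 16.9 in MFL ILC1. Its highest mean was thus in MFL ILC1, where Ms4a4b had its lowest, but the log2 fold change of Tnfrsf18 in MFL ILC1 against MFL NK was 1.07 (SE 0.435) and did not pass (adjusted p = 0.396). Tyrobp and Fcer1g passed in none of the 6 lymphocyte comparisons.

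The related genes Tmem176a and Tmem176b, which encode MS4A-like membrane proteins, had their highest lymphocyte levels in MFL ILC1. Tmem176b was 67.8, 78.6 and 97.1 CPM in MFL ILC1 and at most 0.737 CPM in MFL NK (log2 fold change 7.73, SE 1.59, adjusted p = 0.0092). In LM CD49a+ NK it was 0.581, 13.5 and 41.7 CPM, a spread over which no comparison passed. Tmem176a was 24.7 to 30.2 CPM in MFL ILC1 and at most 0.737 CPM in MFL NK, and its log2 fold change of 6.36 (SE 2.05) did not pass (adjusted p = 0.164). In the macrophages neither passed, with Tmem176b at 292 to 487 CPM.

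Markers of other cells differed between the 2 macrophage populations together with the members. The 9 dendritic cell markers summed to 1268 to 1767 CPM in F4/80int MAM and 90.3 to 161 CPM in F4/80hi MAM, and the 8 classical monocyte markers to 7148 to 10150 and 4112 to 5670 CPM, both in the direction of Ms4a4c and Ms4a8a. The monocyte sum was led by Fn1 (5900 CPM in F4/80int MAM and 3719 CPM in F4/80hi MAM on average). F13a1, of the same list, went the other way (196 and 583 CPM). The 14 macrophage markers summed to 13100 to 16990 and 29060 to 40220 CPM, and the 8 Kupffer cell markers to 16.5 to 22.7 and 77.6 to 107 CPM, both in the direction of Ms4a7 and Ms4a14. The neutrophil markers summed to 366 to 618 and 80.4 to 115 CPM, and tumour epithelium markers to 199 to 283 and 8.56 to 12.1 CPM. The neutrophil difference was mostly Mmp9 (353 CPM in F4/80int MAM and 8.85 CPM in F4/80hi MAM on average), while Csf3r was 75.2 and 85.7 CPM. Only 3 of the 8 tumour epithelium genes had a row, and their sum was mostly Cdh1 (234 and 9.24 CPM on average). Hepatocyte markers went from 214 to 245 up to 365 to 728 CPM, and B cell markers from 8.52 to 27.6 to 27.9 to 58.5 CPM. Of the 8 hepatocyte genes 5 had a row. Alb averaged 2.25 CPM in F4/80int MAM and 4.36 CPM in F4/80hi MAM, and Ahsg, Apoa1 and Fgb at most 1.19 CPM. Most of the hepatocyte sum thus came from the remaining gene with a row. T cell markers (8.09 to 23.4 and 6.91 to 16.0 CPM) overlapped. Of the 8 mast cell markers only 1, Gata2, had a row, and it overlapped as well (0.376 to 10.6 and 1.14 to 2.52 CPM). The part of these cells in the differences of the members was not tested.

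The genes most alike to a member, by Pearson's r of log2 CPM over the libraries of a table, are given as a description. For Ms4a4b over the 12 lymphocyte libraries they were 2010016I18Rik (r = 0.858), Sh2d1a (0.847), which encodes the adaptor SAP of NK and T cells, and Col8a2 (0.820). For Ms4a6b they were Arl14ep (0.960), Dcun1d4 (0.954) and Ppm1j (0.953). For Ms4a7 over the 6 macrophage libraries they were Rnase4 (0.9998), Ang (0.9989) and Galc (0.9988), where the 2 groups alone give high values of r to any gene that differs between them.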

How the data were processed

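The 12 lymphocyte and 6 macrophage libraries were sequenced separately, with a stranded total RNA kit for low input and a directional poly(A) kit. The authors trimmed reads with Trim Galore and quantified them against GRCm39 with Salmon, version 1.5.0 for lymphocytes and 1.10.0 for macrophages, and deposited expected counts per gene. Salmon divides reads that fit several copies by estimation. The macrophage table holds only genes with at least 37 counts over its libraries, and how that table was annotated and filtered is not given in the sources used here. After rounding to integers, these counts were filtered with filterByExpr, TMM-scaled and tested in edgeR 4.0.16 (quasi-likelihood, R 4.3.3) in 1 fit per table, with Benjamini-Hochberg adjustment over all genes tested and a threshold of 0.1. DESeq2 1.42.0, limma-voom (limma 3.58.1), other scalings and filters, fits of 2 groups alone, a replicate block and leaving out each library were the alternatives. No 2 libraries held identical values. Nothing states that the macrophage libraries came from separate mice, so p-values measure the spread between libraries, which may be technical, and floors cover counting error only. Gene positions and lengths came from the Ensembl annotation of GRCm39, and promoter windows from RefSeq. Named genes were the 7 members, other Ms4a genes over 3 counts in any library, the related Tmem176 genes, 6 partner genes, marker genes and the 3 genes most alike to a member. The scripts were tested on simulated data. The members and gene lists were chosen with earlier results of these data known.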

Additional observations from a re-analysis of the deposited data

How the results depend on the processing

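In the macrophages all 108 values of members and subfamily sums under the alternatives kept their direction, and Ms4a7, Ms4a4c, Ms4a4b, Ms4a6b and the Ms4a4 sum were called under each of the 12. Of these 12, the fit without a low-count filter only repeats the main fit. Both tested 13759 genes and called 7555, since the filter removed no gene. Leaving out 1 library gave 4 to 5 members called. In the lymphocytes 828 of 885 values kept direction and side of the threshold, 14 came to pass, 7 of Ms4a4b and 7 of the Ms4a4 sum, and 43 turned direction, none of them a call. The cause of these changes was not tested. In MFL ILC1 against MFL NK, 1 member (Ms4a4b) was called by DESeq2, by limma-voom and with the 2 groups alone, and 0 to 1 with a library left out. Limma-voom called 1 member (Ms4a4b) in LM CD49a+ NK against MFL ILC1 and in the interaction. With the longest coding transcript, the shares of summed CPM per kb were 57.9% for Ms4a4b in MFL ILC1, 26.4% for Ms4a4c in F4/80int MAM and 24.9% for Ms4a6d in F4/80hi MAM.

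With limma-voom, the log2 fold change of Ms4a4c was -0.25 in LM CD49a+ NK against LM CD49a- NK, -0.47 in LM CD49a+ NK against MFL NK, -0.22 in LM CD49a- NK against MFL NK, -1.15 in MFL ILC1 against MFL NK and 0.90 in the interaction, and that of Ms4a6d in the interaction was -1.08. Same-numbered lymphocyte libraries correlated at -0.0452 to 0.0981 (18 pairs) and macrophage libraries at -0.0145 to 0.172 (3 pairs) in their deviations from group means, so the numbers were not taken to pair samples. A replicate block called 0 members in each lymphocyte comparison and 4 in the macrophages. It turned Ms4a4c in LM CD49a+ NK against MFL ILC1 (-0.55), and Ms4a4a (0.22) and Ms4a6d (-1.23) in the interaction.

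With 1 library left out, values that turned ranged as follows. In LM CD49a+ NK against LM CD49a- NK, Ms4a4a ranged from -6.79 to 3.45, Ms4a4c from -1.63 to 1.38, Ms4a6d from -2.62 to 6.00 and the Ms4a6 sum from -0.12 to 0.82. In LM CD49a+ NK against MFL NK, Ms4a4b ranged from -0.28 to 0.041, Ms4a4c from -0.51 to 2.03, Ms4a6b from -0.42 to 0.43, Ms4a6d from -4.26 to 5.98, the Ms4a4 sum from -0.30 to 0.051 and the Ms4a6 sum from -0.86 to 0.085. In LM CD49a- NK against MFL NK, Ms4a4a ranged from -8.33 to 0.36 and Ms4a6d from -4.27 to 2.60. In MFL ILC1 against MFL NK, Ms4a4c ranged from -1.10 to 1.06. In LM CD49a+ NK against MFL ILC1, Ms4a4a ranged from -5.60 to 3.43, Ms4a4c from -1.01 to 2.55 and Ms4a6d from -6.36 to 0.21. In the interaction, Ms4a4a ranged from -4.07 to 6.17, Ms4a4c from -2.13 to 1.42, Ms4a6b from -0.33 to 0.69, Ms4a6c from -4.58 to 0.41, Ms4a6d from -4.72 to 3.91 and the Ms4a6 sum from -0.38 to 0.57.

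The number of all genes called moved more. It was 19 in LM CD49a+ NK against LM CD49a- NK (0 by limma-voom, 543 by DESeq2), 88 in LM CD49a+ NK against MFL NK (26 without MFL NK replicate 1, 371 without a filter) and 10 in LM CD49a- NK against MFL NK (1 without MFL NK replicate 1, 158 without a filter). It was 416 in MFL ILC1 against MFL NK (268 without MFL NK replicate 1, 2645 by limma-voom), 486 in LM CD49a+ NK against MFL ILC1 (257 without MFL ILC1 replicate 3, 997 by DESeq2), 140 in the interaction (75 without MFL NK replicate 2, 348 by DESeq2) and 7555 in the macrophages (6550 to 7981).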
